A study of Mus musculus with 41 samples.

Results

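The regions described are the FLAG ChIP-seq peaks of mouse 3T3 fibroblasts on day 3 of osteogenic medium: all 50180 peaks of the list named for cells overexpressing a tagged Runx2 (Runx2BioFL), set against all 16799 peaks of the list named for cells overexpressing GFP. Together they are 66979 of the 155773 peaks in the 8 lists of the study. Every peak of both lists was kept, and sharing means an overlap of 1 bp or more with any peak of the list it is set against. The study mapped Runx2 binding and open chromatin in skeletal cells with 41 samples in 24 groups. The 6 other lists read here are Runx2 day 0 and GFP day 0 of the same 3T3 design, tagged Runx2 in rib chondrocytes and in calvarial osteoblasts of newborn mice, Jun in calvarial osteoblasts and Foxa2 in rib chondrocytes. The 3T3 line is an immortalised mouse embryo fibroblast line.

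Both day 3 cultures received the same FLAG precipitation and the same osteogenic medium, with 100 ng/ml rhBMP-2, 50 μg/ml ascorbic acid phosphate and 10 mM β-glycerophosphate, and they differed in the transgene. Each was represented by 1 library, so no difference below has a replicate check, and every interval covers counting error only. Peaks of 1 list are not replicates of a condition. Runx2 was overexpressed in a fibroblast line, and neither its promoter nor whether the cells were clonal is given in the sources used here. No expression values were analysed, so neither the cell identity nor the level of Runx2 was checked.

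File names and sample descriptions contradict each other for 2 of the 4 lists of 3T3 cells. By description the GFP day 3 list belongs to Runx2 day 0 cells, and the Runx2 day 0 list belongs to GFP day 3 cells. Both lists were used by their own names, so that "GFP day 3" below means the list of that name. With them exchanged, 51.4% of Runx2 day 3 peaks overlapped the background list in place of 15.9%, and values under exchange are given beside the odds ratios.

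Runx2 is the RUNX family transcription factor that osteoblast differentiation requires, and it also acts in maturing chondrocytes. FLAG precipitation from cells that express GFP has no tagged Runx2 to recover, so its peaks serve as a measure of background from the antibody, the beads and the chromatin. That the list named GFP day 3 is such a list rests on its name, and the source of its peaks was not tested. Jun is a subunit of AP-1, a dimeric factor found at active enhancers of many cell types including fibroblasts. Foxa2 is a forkhead factor that can bind closed chromatin and acts in chondrocyte hypertrophy.

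The Runx2 list was the longer by every measure taken. It held 2.99 times as many peaks as the GFP list, 3.31 times as many regions after overlapping peaks of 1 list were merged (46947 against 14164), and covered 2.70 times as much sequence (11.0 against 4.06 Mb). Its peaks were narrower, with a median of 213 bp (quartiles 163 and 278 bp) against 254 bp (187 and 337 bp). The GFP list was the most self-overlapping of the 8: 28.3% of its peaks overlapped another peak of the same list. That share was 11.4% in Runx2 day 3, 13.3% in Runx2 day 0 and 6.99% in GFP day 0, and between 0.793% and 1.82% in the 4 lists from primary cells. Read depth was unknown, and list length depends on it, so these ratios are not a measure of enrichment.

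Overlapping pairs mostly shared much of the shorter peak, but their centres were loosely aligned. The 9803 overlapping pairs shared a median of 118 bp, or 80.0% of the shorter peak. Their centres lay a median of 100 bp apart, and in 32.5% of pairs 1 peak lay inside the other. Around all Runx2 day 3 peaks, 10546 GFP day 3 centres were counted within 250 bp, 4963 of them within 100 bp. Here and below these are counts of pairs: a centre near several Runx2 day 3 peaks was counted for each of them. GFP day 0 (984 of 1990), Jun (4164 of 8171) and Foxa2 (987 of 1976) were spread in a similar way. Runx2 day 0 (23411 of 31832), osteoblast Runx2 (4911 of 7473) and chondrocyte Runx2 (6864 of 10046) had a larger share within 100 bp. The shared sequence came to 0.960 Mb, which was 8.76% of the Runx2 sequence and 23.6% of the GFP sequence. Of the Runx2 peaks, 42192 overlapped 0 GFP peaks, 6310 overlapped 1 and 1678 overlapped 2 or more, so that 15.9% overlapped. For comparison, 17.9% of the 88794 peaks in the 6 other lists overlapped a GFP day 3 peak, a similar share. That pool mixes unlike lists, from 0.665% of Foxa2 peaks to 55.8% of GFP day 0 peaks. Of the GFP peaks, 9755 overlapped 0 Runx2 peaks, 4874 overlapped 1 and 2170 overlapped 2 or more, so that 41.9% overlapped. Just inside the limit, 228 Runx2 peaks had a largest overlap of 1 to 10 bp. Just outside it, 216 ended within 10 bp of a GFP peak.

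GFP peaks that missed a Runx2 peak were mostly near one. Their median distance to the nearest Runx2 day 3 peak was 736 bp, and 73.1% of all GFP peaks overlapped a Runx2 peak or lay within 1000 bp of one. The converse distance was long: Runx2 peaks without a GFP peak lay a median of 28.3 kb from the nearest one, and 27.3% of all Runx2 peaks overlapped a GFP peak or lay within 1000 bp. The lists differ 2.99 times in length, and how much of the gap between these distances that accounts for was not tested.

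File order separated the Runx2 peaks by their overlap with background more sharply than width did. The lists hold no score and were not sorted by position, and the sources used here do not say what set their order. In 10 equal parts of 5018 peaks, the share with a GFP peak was 45.9% (95% Wilson interval 44.5 to 47.3%) in the first part, 43.6% in the second, 32.9% in the third, 18.3% in the fourth and 8.71% in the fifth. It was 5.18%, 2.47%, 1.43%, 0.458% and 0.259% (0.151 to 0.443%) in the other 5 parts, where the last held 13 shared peaks. The share thus fell at each step. Across 10 classes of width it ran from 23.8% in the narrowest to 11.0% in the sixth and 21.7% in the widest, with no single direction. In the GFP list the share with a Runx2 peak was 30.1% in the narrowest class and 50.0% in the widest.

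**Figure D1:**
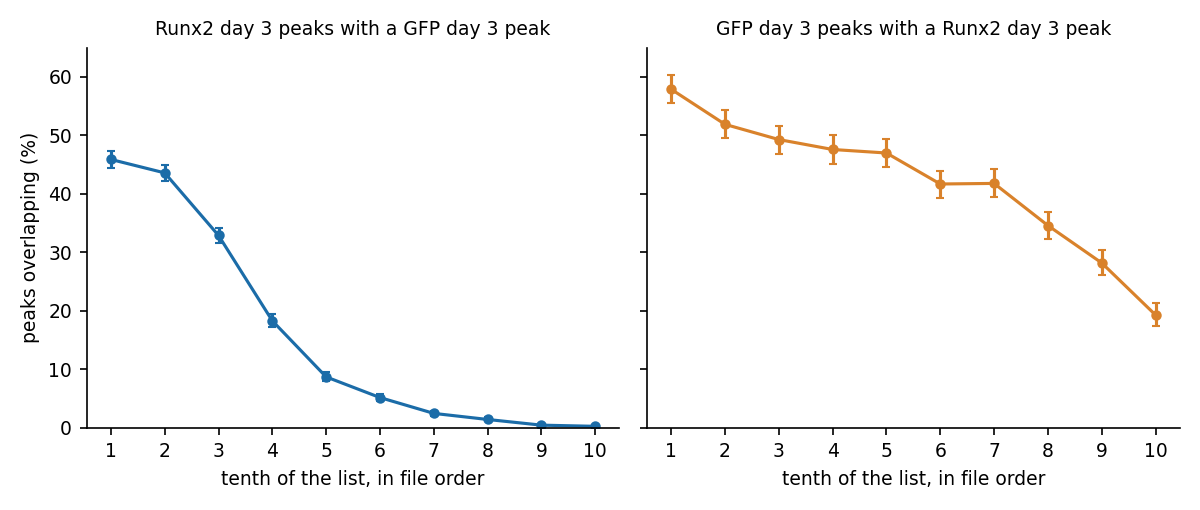
Share (%) of Runx2 day 3 peaks that overlap a GFP day 3 peak (left) and of GFP day 3 peaks that overlap a Runx2 day 3 peak (right), by part of each file from its start (part 1) to its end (part 10); bars are 95% Wilson intervals for counting error. The Runx2 share falls from 45.9% to 0.259%, and the GFP share from 57.9% to 19.3%.

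The orders of the 2 lists were weakly related among shared peaks. Over the 9803 overlapping pairs the file positions had a Spearman rho of 0.19, given as a description because pairs share peaks. Of these pairs, 94.6% lay in the first 50% of the Runx2 list and 63.9% in the first 50% of the GFP list.

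In the last part of the Runx2 list the GFP peaks were sparse at the peak itself and present beside it. Around the 5018 Runx2 peaks of that part, 8 GFP day 3 centres lay within 250 bp and 304 at 250 to 1000 bp, a density ratio per bp of 0.0789. Within 100 bp there were 0 GFP centres. Around the first part the counts were 3133 and 2929, with a density ratio of 3.21, and around the fifth 522 and 1006, with 1.56. A density ratio above 1 means that centres crowd towards the Runx2 peak, and a value below 1 means that they thin out there.

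Other lists did not all thin out in the last part. Foxa2 centres had a density ratio of 2.95 in the first part (183 within 250 bp) and 2.61 in the last (201). Jun centres had 3.90 in the first part (2091) and 1.44 in the last (183). In the last part, Runx2 day 0 centres had 2.15, chondrocyte Runx2 2.13 and osteoblast Runx2 1.46. The lists that did thin out there were GFP day 0, with 0.409 from 9 centres within 250 bp, and the other peaks of the Runx2 day 3 list itself, with 0.215 from 129 centres within 250 bp and 1800 beyond. The list's own neighbours had 2.79 in the first part but were already at 0.330 in the fifth, where GFP day 3 had 1.56, so the own-list and GFP values did not fall at the same place in the file. An own-list centre very close by means that peaks of that list overlap, so the own-list ratio also reads self-overlap. Likewise, the few GFP centres at late peaks and the low share of shared late peaks are the same overlap read in different ways. Why own-list or GFP centres thinned out was not tested.

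**Figure D2:**
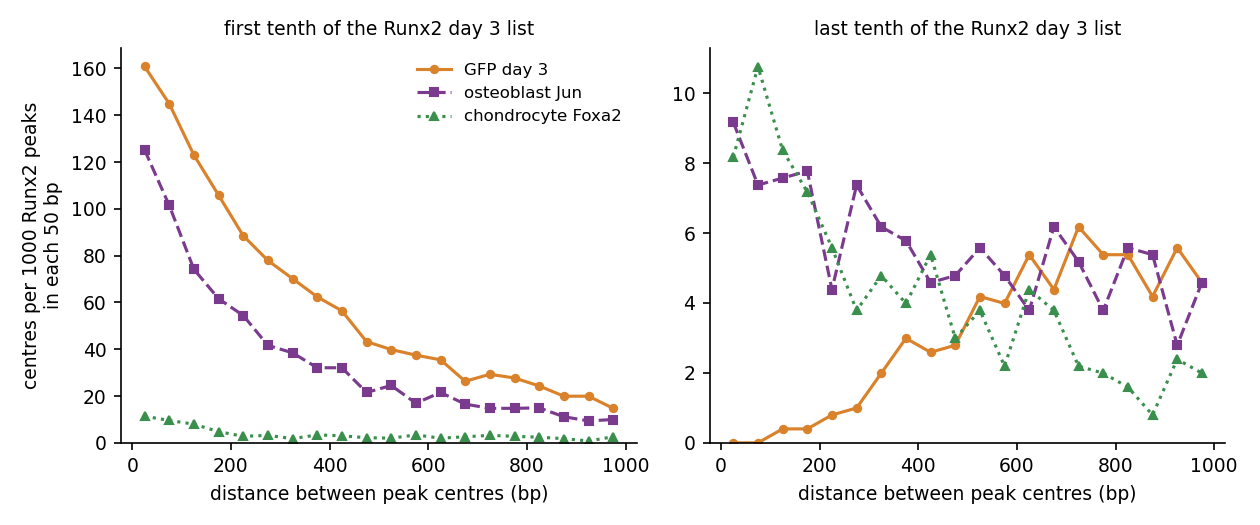
Centres of GFP day 3, Jun and Foxa2 peaks in 50 bp bins, per 1000 Runx2 day 3 peaks, against their distance (bp) from the centre of a Runx2 day 3 peak, for the first part of the Runx2 list (left) and the last (right), with separate vertical scales. GFP day 3 centres crowd towards first-part peaks (3133 within 250 bp) and are nearly missing at last-part peaks (8 within 250 bp), where Jun (183) and Foxa2 (201) are not. A centre near several Runx2 day 3 peaks is counted for each of them.

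The primary-cell Runx2 lists were met more often at Runx2 day 3 peaks with a GFP peak, over the whole list. Osteoblast Runx2 overlapped 14.1% of all Runx2 day 3 peaks: 29.9% (28.9 to 30.9%) of the 7988 with a GFP peak and 11.1% (10.8 to 11.5%) of the 42192 without. The odds ratio was 3.39 (exact 95% interval 3.20 to 3.59), and the share was higher with a GFP peak on 19 of 20 chromosomes. Chondrocyte Runx2 overlapped 18.4% of all: 32.8% with and 15.7% without, an odds ratio of 2.61 (2.47 to 2.76), higher on 19 of 20 chromosomes. The exception in both was chromosome X, where osteoblast Runx2 was at 6.15% of 65 peaks with and 12.1% of 381 without, and chondrocyte Runx2 at 15.4% and 16.8%.

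Most of that difference was absent among peaks at the same place in the file. For osteoblast Runx2 the Mantel-Haenszel odds ratio over the 10 parts was 1.10 (1.03 to 1.17), with the share higher with a GFP peak in 7 of 10 parts. In the first part it was 52.2% with and 48.5% without, in the second 30.7% and 28.4%, and in the third 19.5% and 19.8%. For chondrocyte Runx2 the odds ratio over the parts was 0.871 (0.817 to 0.928), the opposite direction, and the share was higher with a GFP peak in 2 of 10 parts. Its shares were 56.9% with and 56.4% without in the first part, 33.2% and 36.8% in the second, and 7.55% and 13.9% in the fifth. Pooled over the parts on each chromosome alone, the odds ratio was above 1 on 11 of 20 for osteoblast and 5 of 20 for chondrocyte Runx2. With the 2 lists exchanged, the odds ratios were 5.87 for osteoblast and 5.90 for chondrocyte Runx2 over the whole list and 2.01 and 2.63 over the parts, so this result holds for the lists as named.

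Runx2 day 0 gave the same kind of turn. It overlapped 51.4% of all Runx2 day 3 peaks, 77.5% of those with a GFP peak and 46.4% of those without, an odds ratio of 3.99 (3.77 to 4.22) that had its direction on 20 of 20 chromosomes. Over the 10 parts the odds ratio was 0.777 (0.724 to 0.833), and pooled so on each chromosome alone it was above 1 on 1 of 20. In the first part nearly all peaks were in the day 0 list, 96.4% with and 95.2% without, and in the fifth part the shares were 44.6% and 56.6%. Exchanging the lists leaves this odds ratio as it is, because both enter it alike.

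Jun kept its direction in every part of the file. It overlapped 13.1% of all Runx2 day 3 peaks: 34.5% (33.5 to 35.6%) with a GFP peak and 9.07% (8.80 to 9.34%) without. The odds ratio of 5.28 (4.99 to 5.59) became 2.44 (2.29 to 2.60) over the 10 parts, and the share was higher with a GFP peak in 10 of 10 parts and on 20 of 20 chromosomes. It was 43.1% with and 23.1% without in the first part, 33.5% and 16.8% in the third, and 21.7% and 9.80% in the fifth. With the lists exchanged the odds ratio over the parts was 1.83.

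Foxa2 was the list met less often at Runx2 peaks with a GFP peak. It overlapped 3.24% of all: 71 of 7988 peaks with a GFP peak, or 0.889% (0.705 to 1.12%), and 1555 of 42192 without, or 3.69% (3.51 to 3.87%). The odds ratio was 0.234 (0.182 to 0.298) over the whole list and 0.217 (0.169 to 0.280) over the 10 parts, and the share was lower with a GFP peak on 20 of 20 chromosomes. The share without a GFP peak was 4.50% in the first part and 4.34% in the fourth, against 1.30% and 0.436% with one. The ninth part ran the other way, with 1 of 23 peaks. With the lists exchanged this difference was not there: the odds ratio was 1.06 (0.959 to 1.17) over the whole list and 1.25 (1.11 to 1.40) over the parts. The Foxa2 result therefore rests on which list is the GFP day 3 list.

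**Figure D3:**
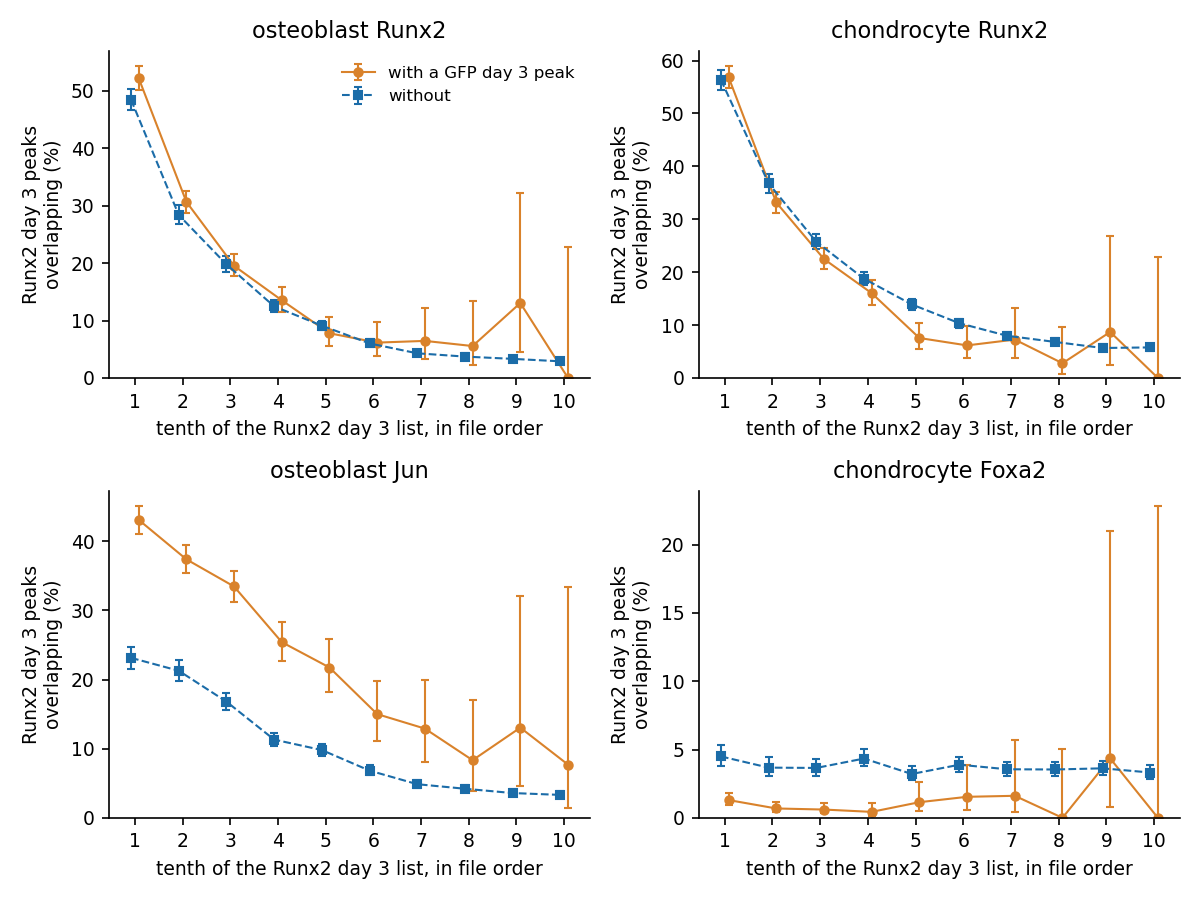
Share (%) of Runx2 day 3 peaks that overlap 4 lists from primary cells, by part of the Runx2 list in file order, for peaks with a GFP day 3 peak (orange) and without (blue); bars are 95% Wilson intervals for counting error. The 2 Runx2 lists lie close together at 52.2% and 48.5% (osteoblast) and 56.9% and 56.4% (chondrocyte) in part 1, Jun is higher with a GFP peak (43.1% and 23.1%) and Foxa2 lower (1.30% and 4.50%).

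GFP day 0, the other background list, overlapped 3.30% of Runx2 day 3 peaks. The share was 12.6% with a GFP day 3 peak and 1.54% without, an odds ratio of 9.22 (8.32 to 10.2) that was 4.82 (4.29 to 5.42) over the parts, higher in 10 of 10 parts. With the lists exchanged the values were 3.02 and 1.05 (0.918 to 1.19). Counting both GFP lists as background raised the Runx2 day 3 peaks with a background peak to 8638, or 17.2%, and 1007 (2.01%) overlapped both.

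The combinations of lists at a Runx2 day 3 peak gave a wide range of background overlap. Of 33902 peaks in none of the Runx2 lists from primary cells, Jun or Foxa2, 9.28% (8.97 to 9.59%) had a GFP peak. That share was 24.9% (24.0 to 25.8%) of 8211 peaks with a primary Runx2 peak only, 39.2% (37.6 to 40.9%) of 3221 with Jun only, and 45.5% (43.8 to 47.2%) of 3220 with both. It was 2.74% (1.80 to 4.15%) of 767 peaks with primary Runx2 and Foxa2 but not Jun, and 3.06% (2.03 to 4.59%) of 719 with Foxa2 only. Where Jun was present as well the shares over the whole list were above that for none, at 25.0% (13.8 to 41.1%) of 36 peaks with Jun and Foxa2, and 18.3% (12.0 to 26.8%) of 104 with primary Runx2, Jun and Foxa2. The first 50% of the list gave 21.7% for none, 31.6% for primary Runx2 only, 51.2% for Jun only, 49.5% for primary Runx2 with Jun, and 4.08% for primary Runx2 with Foxa2. It gave 50.0% of 18 peaks with Jun and Foxa2. For primary Runx2, Jun and Foxa2 it gave 22.4% of 85 peaks, close to none. Of the 18 and 19 peaks of these classes in the last 50%, 0 had a GFP peak. The last 50% gave 1.82% for none, 1.89% for primary Runx2 only, 6.50% for Jun only, 3.18% for primary Runx2 with Jun and 0.920% for primary Runx2 with Foxa2. Primary Runx2 alone was thus close to none there, and Jun alone was higher.

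Among the GFP day 3 peaks, those with a Runx2 day 3 peak (7044) were compared with those without (9755), and the odds ratios pooled over file order lay near those of the whole list. Osteoblast Runx2 overlapped 15.1% of all GFP peaks, at 27.5% with and 6.24% without: the odds ratio of 5.69 became 4.98 (4.51 to 5.49) over the 10 parts. Chondrocyte Runx2 overlapped 14.7%, at 28.0% and 5.15%, and 7.18 became 6.29 (5.66 to 6.98). In the last part of the GFP list the chondrocyte share was still 25.9% with and 2.21% without, and in the first 31.8% and 10.3%. Both lists were higher with a Runx2 peak on 20 of 20 chromosomes and in 10 of 10 parts. Pooled over 10 classes of GFP peak width, the odds ratios were 5.63 (5.11 to 6.21) for osteoblast and 7.08 (6.38 to 7.87) for chondrocyte Runx2. Keeping the wider 50% of both lists gave 2.43 (2.15 to 2.75) and 2.44 (2.16 to 2.76). That setting also drops Runx2 peaks, so GFP peaks that overlapped only narrower ones count as without. With the crossed lists exchanged, the peaks tested are the 31013 of the list named Runx2 day 0. The odds ratios were then 2.54 and 2.46 over the whole list and 1.27 and 1.39 over the parts.

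Jun, Runx2 day 0 and GFP day 0 had the same direction on the GFP side. Jun overlapped 25.0% of GFP day 3 peaks, a larger share than it did of Runx2 day 3 peaks (13.1%). It was at 35.5% with and 17.3% without a Runx2 peak, and its odds ratio of 2.63 was 2.20 (2.04 to 2.36) over the parts. Runx2 day 0 overlapped 35.7%, at 71.8% and 9.55%, with an odds ratio of 24.1 over the whole list and 21.5 (19.7 to 23.4) over the parts. Its odds ratio was 23.7 (21.8 to 25.9) over 10 classes of width. It was 5.94 (5.32 to 6.64) in the wider 50% of both lists, where Runx2 day 3 partners were dropped too. GFP day 0 overlapped 9.29%, at 14.2% and 5.78%, with 2.09 (1.87 to 2.34) over the parts. Foxa2 overlapped 0.619%, at 0.809% of peaks with (57) and 0.482% without (47), with 1.95 (1.31 to 2.91) over the parts and a higher share with a Runx2 peak on 12 of 19 chromosomes, so it rests on few peaks. With the lists exchanged, the peaks tested are the 31013 of the list named Runx2 day 0, and the list named GFP day 3 takes its place. Jun was then at 1.74 over the whole list and 1.05 (0.956 to 1.14) over the parts. The list in the place of Runx2 day 0 was at 1.84 and 0.737 (0.672 to 0.808). GFP day 0 was at 1.55 and 0.928 (0.783 to 1.10), and Foxa2 at 0.954 (0.814 to 1.12) and 1.11 (0.942 to 1.31). Over the whole list Jun, GFP day 0 and the list in the place of Runx2 day 0 thus kept their direction under exchange. Over the parts none of the 4 kept an interval above 1.

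**Figure D4:**
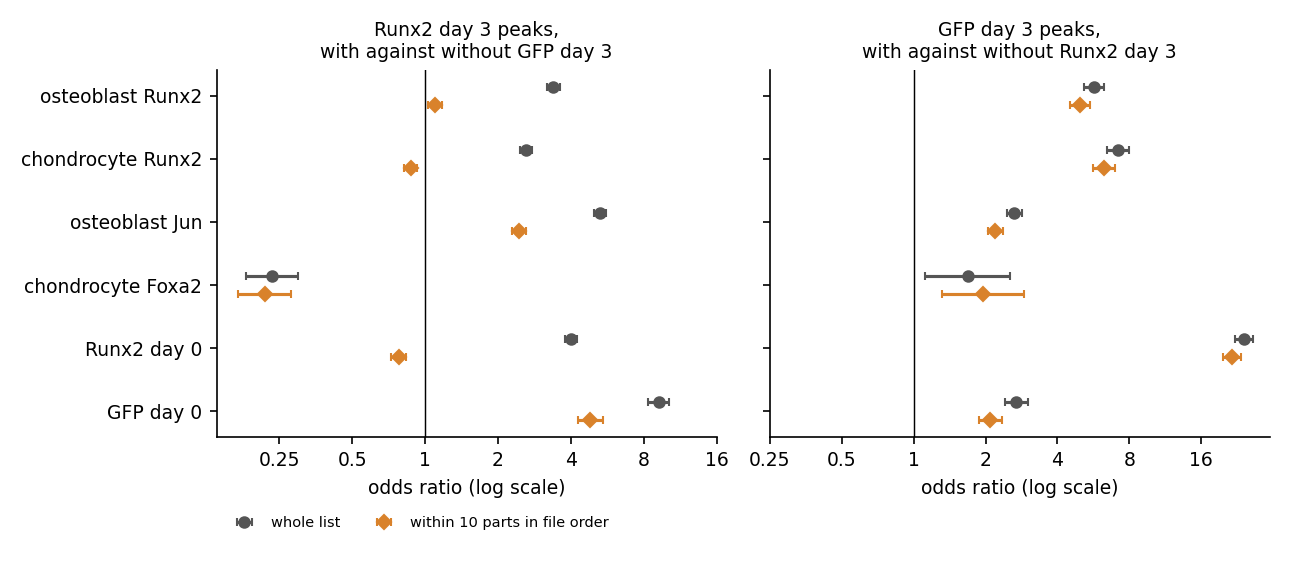
Odds ratios (log axis) of overlap with each of 6 other lists, for Runx2 day 3 peaks with against without a GFP day 3 peak and for GFP day 3 peaks with against without a Runx2 day 3 peak, over whole lists and pooled over 10 parts in file order; bars are 95% intervals for counting error. On the Runx2 side the pooled values for osteoblast Runx2 (1.10), chondrocyte Runx2 (0.871) and Runx2 day 0 (0.777) lie near or below 1, while Jun (2.44) stays above and Foxa2 (0.217) below.

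Peaks that no other list held were common in both day 3 lists. Of Runx2 day 3 peaks without a GFP day 3 peak, 45.7% (45.3 to 46.2%) were in none of the 6 other lists, against 12.7% (12.0 to 13.5%) of those with one. Of GFP day 3 peaks without a Runx2 day 3 peak, 68.0% (67.1 to 68.9%) were in none, against 15.2% (14.4 to 16.1%) of those with one. Both contrasts are over whole lists and were not taken by part of the file. In the first part of the Runx2 list, 96.4% of peaks with a GFP peak and 95.2% without were in Runx2 day 0, so few of either were in none. Runx2 day 3 peaks that were in no GFP list and recurred at Runx2 day 0 numbered 19121, or 38.1% of the list, and 6515 of these, 13.0% of the list, were also in a primary-cell Runx2 list.

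From the side of the other lists, 17.9% of their 88794 peaks overlapped GFP day 3. The share was 20.1% of osteoblast Runx2, 13.6% of chondrocyte Runx2, 23.7% of Jun and 0.665% of Foxa2 peaks. The same lists overlapped Runx2 day 3 at 58.5%, 52.7%, 38.0% and 10.8%. Of the 31013 Runx2 day 0 peaks, 21.6% overlapped GFP day 3 and 81.8% overlapped Runx2 day 3. Jun was thus the primary-cell list with the largest share in GFP day 3, and Foxa2 had the smallest share in either. Of the 2475 GFP day 0 peaks, 56.4% overlapped Runx2 day 3 and 55.8% overlapped GFP day 3.

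By chromosome, the share of Runx2 day 3 peaks with a GFP peak ran from 12.8% (11.7 to 14.0%) on chromosome 15 to 18.2% (16.6 to 19.9%) on chromosome 3. Chromosome 15 also had the most Runx2 peaks for each GFP peak, 4.04, and chromosome 7 the fewest, 2.61. Chromosome X held 446 Runx2 peaks and 164 GFP peaks, with 14.6% of the Runx2 peaks shared. The share of GFP peaks with a Runx2 peak ran from 37.9% on chromosome 8 to 46.0% on chromosome 3.

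Runx2 peaks also lay in runs, here domains of peaks joined over gaps of at most 12.5 kb. Of 20936 domains, 5123 (24.5%) held a GFP peak. That share was 7.72% of 10566 domains with 1 Runx2 peak, 27.0% of 4387 with 2, 44.5% of 3526 with 3 or 4, 59.7% of 1984 with 5 to 9, 76.3% of 427 with 10 to 19, and 44 of the 46 larger ones. More peaks give more chances to hold a GFP peak. Peak by peak the overlap did not climb that way: it was 7.72% for lone Runx2 peaks, 15.9% in domains of 2, 20.4% in domains of 3 or 4, 18.8% in domains of 5 to 9, 15.6% in domains of 10 to 19 and 16.0% in the largest.

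**Figure D5:**
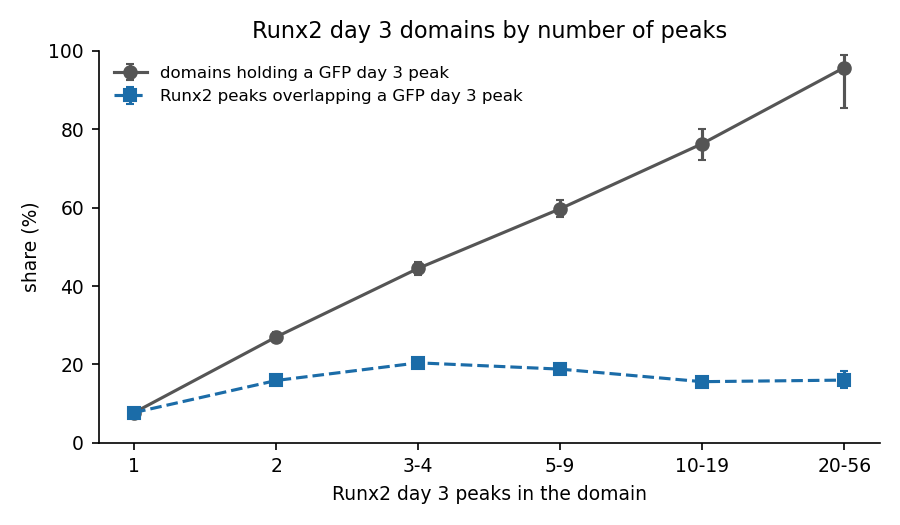
Share (%) of domains holding a GFP day 3 peak, and share of their Runx2 day 3 peaks overlapping one, by number of Runx2 day 3 peaks in the domain; bars are 95% Wilson intervals for counting error. The first rises from 7.72% to 95.7%, while the second stays between 7.72% and 20.4%.

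The domain with the most Runx2 peaks was chr19:5780223-5851848 in mm9, 71.6 kb with 56 Runx2 day 3 peaks. It held 7 GFP day 3 peaks, 19 GFP day 0, 45 Runx2 day 0, 19 Jun and 22 Foxa2 peaks, and 7 of its Runx2 day 3 peaks overlapped GFP day 3. This domain thus held peaks of both backgrounds. Next came chr8:110060550-110112338 (37 Runx2, 4 GFP day 3 and 0 GFP day 0 peaks), then chr1:137556170-137685584 (35 and 4). The domain at chr6:52100887-52171903 held 33 Runx2 and 19 GFP day 3 peaks, yet 5 of its Runx2 peaks overlapped one. Its other lists were uneven, with 16 Foxa2, 10 chondrocyte Runx2, 1 Jun and 0 osteoblast Runx2 peaks. The fifth, chr2:30563110-30664072, held 32 Runx2 and 7 GFP day 3 peaks.

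The largest domain without a GFP day 3 peak was chr15:36321597-36404879, 83.3 kb with 30 Runx2 day 3 peaks. It held 1 Runx2 day 0, 1 osteoblast Runx2, 2 chondrocyte Runx2, 2 Foxa2 and 0 Jun peaks, so little of it was in other lists. The next was chr6:72423261-72502942 with 22 Runx2 day 3 and 9 Runx2 day 0 peaks. The others were chr14:26315708-26387012 (18 and 6), chr15:36744297-36818703 (17 and 9) and chr19:3623717-3681683 (17 and 6). On the GFP side the largest domains without a Runx2 day 3 peak were short: chr12:74145393-74154891 with 9 GFP peaks in 9.50 kb, chr7:134376449-134398325 with 8 in 21.9 kb, and chr4:107474439-107476514 with 7 in 2.08 kb. No gene is named for any region, because no mm9 annotation was used here.

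Single peaks showed the same classes. Among the widest shared Runx2 peaks, chr10:11000788-11001285 (498 bp) was also in both day 0 lists, and chr10:62486493-62486990 (498 bp) was also in Runx2 day 0, chondrocyte Runx2 and Jun. Among the first shared peaks in the file, chr17:87846371-87846548 was in Runx2 day 0 and both primary-cell Runx2 lists, and it overlapped another of the first 3, chr17:87846387-87846589. The other one, chr5:125870167-125870247, 81 bp wide, was in those lists and GFP day 0. The widest shared peak, chr3:51144343-51145009 (667 bp), was in Runx2 day 0, both primary-cell Runx2 lists and Jun.

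The first Runx2 day 3 peaks without a GFP peak in the file stood at positions 6, 22 and 23. They were chr17:37088606-37088746, chr15:78706761-78706912 and chr1:93146793-93146962, and all 3 were in Runx2 day 0, both primary-cell Runx2 lists and Jun. The widest were chr9:63931730-63932229 (500 bp, in Runx2 day 0 and osteoblast Runx2) and chr11:3863576-3864073 (498 bp, in Runx2 day 0 and Jun), with chr10:94495681-94496178 (498 bp) in no other list.

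The first GFP day 3 peaks without a Runx2 day 3 peak stood at positions 1, 2 and 5 of their file. They were chr11:55421375-55421513, the overlapping chr11:55421416-55421558, and chr6:121423224-121423327. All 3 were in GFP day 0, both primary-cell Runx2 lists and Jun, and in neither Runx2 list of 3T3 cells. The widest, with ties taken by position, were chr1:43502462-43502959 (in Jun), and chr1:89652757-89653254 and chr1:91351533-91352030 (in no other list). Each was 498 bp, the greatest width in the GFP list.

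At the ends of this range, 30 Runx2 day 3 peaks were in every other list except the GFP lists, with chr15:51541671-51541847, chr5:36015823-36015987 and chr12:106251344-106251568 the first in the file. There were 4 in all 8 lists, among them the overlapping chr15:72399080-72399266 and chr15:72399070-72399182, and chr15:84659942-84660150.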

How the data were processed

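Each of 8 ChIP-seq groups has 1 peak list as deposited by the authors, with 3 columns (chromosome, start, end) and no score, height or p-value. Per the submitters' processing notes, mm9 was the build and the tools included Bowtie and DiffBind. The sources used here do not give the peak caller, threshold, control, pooling, depth or meaning of the file order. Coordinates are printed 1-based in mm9.

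Peaks were compared by overlap of at least 1 bp, with Wilson 95% intervals for shares and conditional exact 95% intervals for odds ratios (scipy 1.17.1). Mantel-Haenszel odds ratios pooled 10 equal parts of a list (statsmodels 0.14.6). No p-values were computed, since each group has 1 list. Overlap code was checked against bedtools, and 0 of 28 pairs differed. No column of per-sample values was left unused.

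Named regions are the 3 widest peaks and the first 3 in the file of each class, the 3 earliest peaks in every list or in every list except the GFP lists, and the domains with most peaks. Peaks of equal width were taken in order of position. The members and lists were chosen with earlier results of these data known. Alternatives were the overlap rule, a centre distance of 250 bp, fixed widths of 200 bp, merging, exchange of the crossed lists, removal of chromosomes X and Y, the first or wider 50%, and the union of GFP lists. Steps that need an mm9 genome or annotation (nearest genes, gene lists, motifs, sequences) were not run. ATAC-seq, input and IgG libraries were not analysed here.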

Additional observations from a re-analysis of the deposited data

How the results depend on the processing

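The share of Runx2 day 3 peaks with a GFP day 3 peak (15.9%) was 12.4% when 50% of the shorter peak had to overlap, 17.0% for centres within 250 bp, 15.1% at widths of 200 bp, 13.3% with peaks of 1 list merged, 51.4% with the crossed lists exchanged, 19.8% in the first 50% of both files, 8.86% in the wider 50% and 17.2% with both GFP lists. The share of GFP peaks with a Runx2 peak (41.9%) was in the same order 33.1%, 44.9% and 39.5%, then 81.8% exchanged, 48.9%, 24.6% and 43.8%. Merging left it within its interval. The 81.8% is the share of the 31013 peaks of the list named Runx2 day 0. Keeping 50% of both lists drops possible partners, and the union adds GFP peaks. How much of each shift these account for was not tested.

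On the Runx2 side, in the first 50% of both files osteoblast Runx2 was 1.63, chondrocyte Runx2 1.39, Jun 3.09, Runx2 day 0 1.52 and GFP day 0 5.03. On that side, 66 of 78 alternative odds ratios kept their direction with an interval clear of 1, 3 kept it with an interval reaching 1 and 9 reversed. These are not separate checks, since exchange by its form leaves the Runx2 day 0 odds ratios as they were. Over 10 and 100 parts in file order and with merged peaks over 10 parts, chondrocyte Runx2 was 0.871, 0.848 and 0.860 and Runx2 day 0 was 0.777, 0.755 and 0.713; osteoblast Runx2 was 1.06 over 100 parts and 1.04 merged, both intervals reaching 1. Exchanged, Foxa2 was 1.06, and over 10 parts 1.25, Runx2 day 0 0.777 and GFP day 0 1.05. On the GFP side the counts were 72, 3 and 3. Keeping the wider 50% of both lists, which also drops partners, gave 2.43 for osteoblast Runx2, 2.44 for chondrocyte Runx2 and 5.94 for Runx2 day 0. Pooled over 10 classes of width, with both lists whole, these were 5.63, 7.08 and 23.7. Foxa2 was 1.17 in the wider 50%. Exchanged, the peaks tested on this side are the 31013 of the list named Runx2 day 0, and Foxa2 was 0.954. Exchanged over 10 parts, Foxa2 was 1.11, Jun 1.05, GFP day 0 0.928 and the list named GFP day 3, in the place of Runx2 day 0, 0.737. The cause was not tested. The 100 parts, and the parts with exchange or merging, were chosen after seeing the data. No paired analysis was possible because each 3T3 ChIP group has 1 list and no replicate numbers. Depth was not given, so what it limits is unknown.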
